A study of Mus musculus with 4 samples.

Results

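The 9 genes described here are CC chemokines of monocytes and macrophages, namely Ccl2, Ccl3, Ccl4, Ccl5, Ccl6, Ccl7 and Ccl9, with the chemokine receptor Ccr2 and the chemokine-binding receptor Ccrl2. They were taken by symbol from the probe annotation of a mouse whole-transcript microarray, on which 19938 genes had a probe set with a single gene symbol. Each of the 9 had 1 probe set, and all 9 passed the level filter (a signal of at least 30.96, the median of all values) on every array. The cells were mouse bone marrow cultured in GM-CSF, a cytokine that turns marrow into macrophage-like and dendritic-like cells.

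The groups were Bach1-/- cells given heme, Bach1-/- cells given vehicle, Bach1+/+ (wild-type) cells given heme and wild-type cells given vehicle, with 1 array each. Both genotypes were on the B6 background, and the age of the mice and their number per culture are not given in the labels. All cultures received 20 ng/ml GM-CSF in medium with 10% fetal calf serum for 6 days, then heme at 40 µM (printed as µm in the labels) or vehicle, 0.15 M NaCl with 10% NH4OH. Floating cells were discarded 24 hours later and RNA was taken from the scraped layer, so the values describe the adherent fraction alone. In such bulk RNA, fewer cells of a type and less RNA per cell cannot be told apart. With 1 array per group no difference below has a replicate check, no p-value was calculated, and a difference of genotype cannot be told apart from a difference between cultures.

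CC chemokines are small secreted proteins, named for a pair of adjacent cysteines, that draw leukocytes along a gradient through G protein-coupled receptors. Ccl2 and Ccl7 are ligands of Ccr2, the receptor by which inflammatory monocytes leave the bone marrow, and Ccl3 and Ccl5 are ligands of Ccr1. Bach1 is a transcriptional repressor that heme binds and inactivates, and the series asks what heme does to Bach1 and to the transcription factor Spic.

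Array medians ranged from 30.43 to 31.39. The Bach1 probe set itself read 204.4 and 211.3 on the heme and vehicle arrays labelled knockout, and 264.3 and 212.0 on the wild-type heme and vehicle arrays. It did not set the genotypes apart, and no source used here says whether its probes lie in the deleted part, so the arrays are called labelled knockout. Hmox1, the heme-degrading enzyme and a known Bach1 target, read 10330 and 9047 on the labelled knockout heme and vehicle arrays, and 9881 and 1827 on the wild-type heme and vehicle arrays. Macrophage markers were at level on all arrays for 10 of 10 genes and monocyte markers for 16 of 17. T and NK cell markers were at level on all arrays for 0 of 11 genes, with Cd3e, Cd3g and Cd3d below the filter everywhere.

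A gene was called higher or lower when the arrays differed by 2-fold or more (1 on the log2 scale) and the brighter one passed the level filter. In labelled knockout against wild type, Ccrl2 was higher in both media, by 2.27-fold each time. Ccl4 and Ccl5 were lower in heme, by 2.10-fold and 2.54-fold. That makes 1 of 9 genes called in vehicle, where 1.67% of 10859 genes at level were called (0.525% higher, 1.14% lower), and 3 of 9 in heme, where 1.49% of 10790 were (0.519% higher, 0.973% lower). Heme against vehicle gave 0 of 9 calls in the labelled knockout (1.65% of 10843 genes) and 0 of 9 in wild type (2.06% of 10772). The difference of the heme responses between genotypes gave 0 of 9 (2.04% of 11155). Several genes lay just short of the call: Ccl2 and Ccr2 each had a log2 difference of -0.99 in vehicle, labelled knockout minus wild type.

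**Figure D1:**
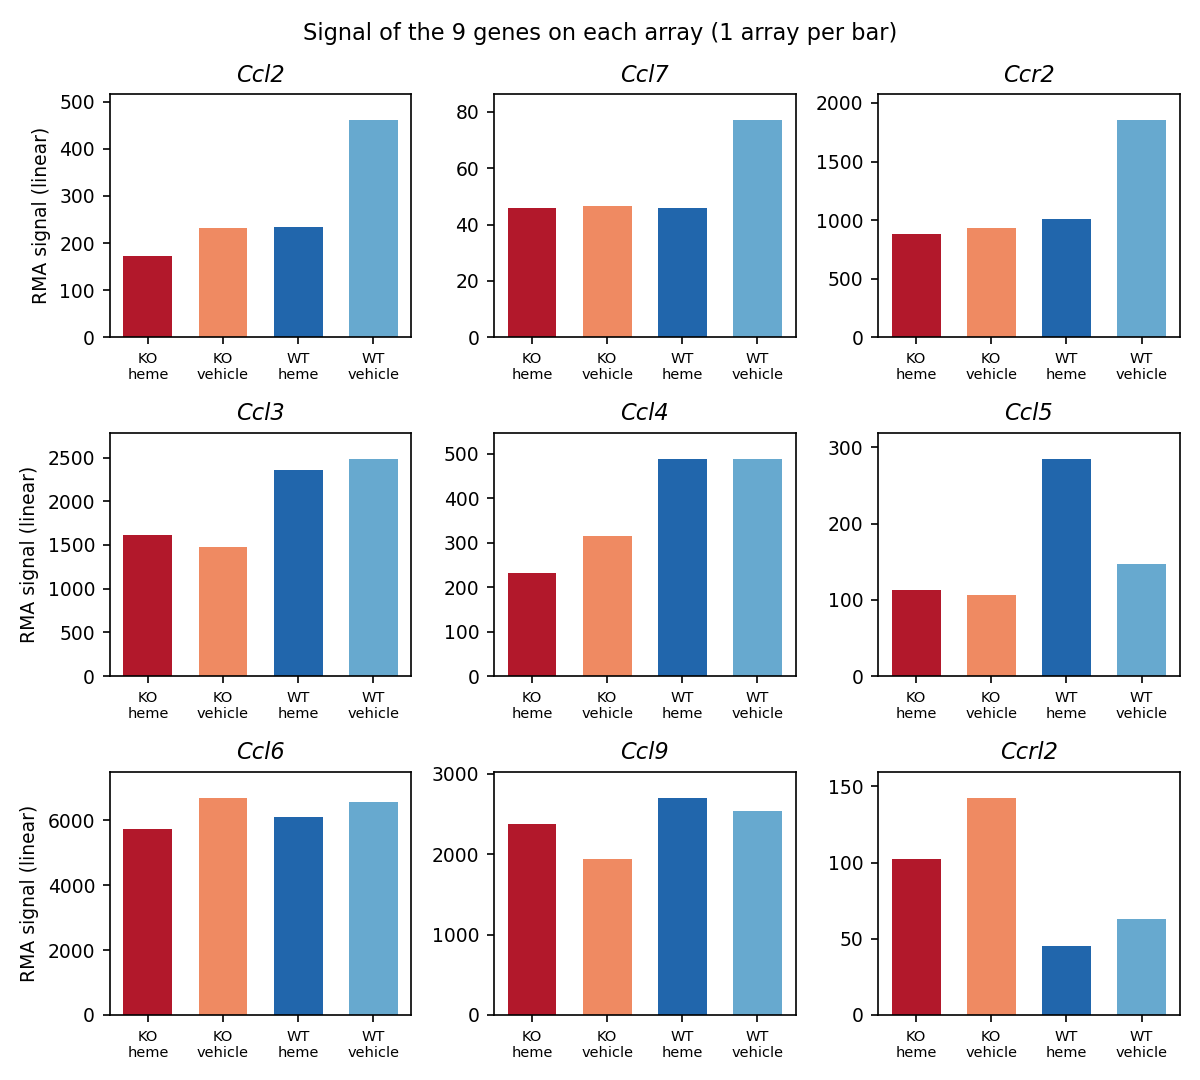
Linear RMA signal (vertical axes from 0, a scale for each gene) of the 9 genes on the 4 arrays, with 1 array per bar and no error bars. Ccl2, Ccl7 and Ccr2 stand highest on the wild-type vehicle array, Ccl5 on the wild-type heme array, and Ccrl2 on both arrays labelled knockout.

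Across the 9 genes, the median difference of labelled knockout minus wild type was -0.20 on the log2 scale in heme and -0.64 in vehicle, against 0.01 and -0.02 over all genes at level. Heme minus vehicle had medians of -0.08 in the labelled knockout and -0.10 in wild type, against 0.02 and -0.01 over all genes. For 6 of the 9 genes (Ccl2, Ccl3, Ccl4, Ccl5, Ccl9 and Ccr2) both labelled knockout arrays read below both wild-type arrays, which was the case for 18.0% of 11155 genes at level. For 1 gene, Ccrl2, both labelled knockout arrays read above both wild-type arrays (17.1% of all genes). Ccl6 and Ccl7 overlapped between genotypes.

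**Figure D2:**
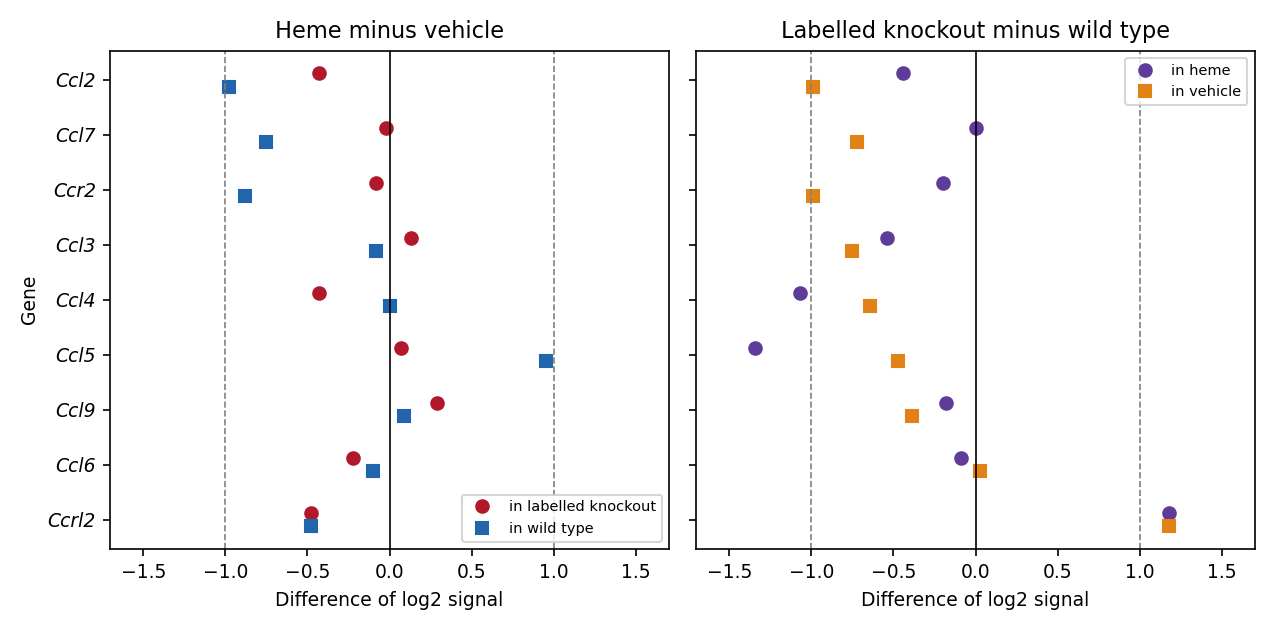
Differences of log2 signal for each of the 9 genes, heme minus vehicle on the left (circles labelled knockout, squares wild type) and labelled knockout minus wild type on the right (circles heme, squares vehicle); each point is a pair of arrays and dashed lines mark 2-fold. Ccrl2 lies at 1.18 in both media on the right, while Ccl4 (-1.07) and Ccl5 (-1.34) pass the lower line in heme.

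Among the ligands, Ccl2 (monocyte chemoattractant protein 1), the main ligand of Ccr2, had signals of 172.7 in labelled knockout heme, 232.2 in labelled knockout vehicle, 234.4 in wild-type heme and 460.9 in wild-type vehicle. The wild-type vehicle array stood 1.97-fold above the next, and the other 3 lay within 1.36-fold of each other. Heme minus vehicle was -0.43 on the log2 scale in the labelled knockout and -0.98 in wild type, where 104 of 10772 genes were lower by as much. Labelled knockout minus wild type was -0.44 in heme and -0.99 in vehicle.

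Ccl7 (monocyte chemoattractant protein 3), another Ccr2 ligand, read 45.98 in labelled knockout heme, 46.66 in labelled knockout vehicle, 45.96 in wild-type heme and 77.06 in wild-type vehicle. It too was highest on the wild-type vehicle array alone, by 1.65-fold over the next, while the other 3 arrays spanned 1.02-fold. Its log2 differences were -0.02 and -0.75 for heme in labelled knockout and wild type, and 0.00 and -0.72 for genotype in heme and vehicle. These signals are not far above the level filter, and the files hold no background call.

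Ccr2, the receptor of both, read 880.2 in labelled knockout heme, 933.4 in labelled knockout vehicle, 1009 in wild-type heme and 1854 in wild-type vehicle. The last array stood 1.84-fold above the next, and the remaining 3 spanned 1.15-fold. Heme minus vehicle was -0.08 in the labelled knockout and -0.88 in wild type, and labelled knockout minus wild type was -0.20 in heme and -0.99 in vehicle. The Ccr2 receptor and its ligands Ccl2 and Ccl7 thus shared their highest array. A lone lead of 1.5-fold or more on the wild-type vehicle array was seen at 3 of the 9 genes and at 0.816% of 11155 genes at level. Every difference of these 3 genes over 1.5-fold uses the wild-type vehicle array. In heme, the genotype comparison without it, none of the 3 differed by more than 1.36-fold.

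A lone lead of 1.5-fold on the wild-type vehicle array was seen at 1 of 10 macrophage markers and 0 of 17 monocyte markers. By any margin, 4 of 10 macrophage markers (Csf1r, Itgam, Mertk and Fcgr1) and 9 of 17 monocyte markers read highest there. Some margins were very small: Csf1r read 1118 there and 1116 in wild-type heme, and Itgam 1772 and 1752. The share of all genes highest on that array by any margin was not computed. With heme in wild type, 9 of 10 macrophage markers and 13 of 17 monocyte markers had a difference below 0. The medians were -0.15 and -0.12, against -0.01 over all genes at level. For Csf1r, Itgam, Adgre1, Lyz2 and Chil3 the difference was 0.02 or less in size. Csf1r, Itgam, Lyz2 and Cd14 are on both lists, so the counts are not separate. Summed macrophage marker signal was 21186 and 21567 on the labelled knockout heme and vehicle arrays, and 19818 and 21246 on the wild-type heme and vehicle arrays. Monocyte markers summed to 26465 and 28052 in the labelled knockout (heme, vehicle) and 26436 and 27863 in wild type, sums in which the brightest genes weigh most. Between genotypes 0 of 17 differed by 2-fold in either medium, where 1.49% (heme) and 1.67% (vehicle) of all genes at level did. With shares this small, 0 of 17 does not set these markers apart from other genes. With heme, the matrix proteoglycan gene Vcan was called higher in both genotypes and Plac8 in the labelled knockout alone, and no monocyte marker was called lower. Plac8 rose in the labelled knockout from 20.81, below the level filter, to 45.29. The difference of the heme responses was called for Plac8 (1.06) and, just at 2-fold, for the macrophage marker Fcgr1. Fcgr1, the high-affinity IgG receptor, was the macrophage marker with the lone lead, at 59.68 and 84.71 in the labelled knockout (heme, vehicle) and 83.27 and 237.0 in wild type. It was the only macrophage marker of 10 called in any comparison. The part of macrophage and monocyte numbers in the chemokine values was not tested. Fibroblasts and endothelial cells can also make Ccl2 and Ccl7, and 4 of 10 of their markers were at level on any array. Their summed signal was 216.6 and 237.4 in the labelled knockout and 275.3 and 255.4 in wild type. Kdr, an endothelial receptor, was the only fibroblast or endothelial marker called, with a log2 difference of -1.04 in vehicle, labelled knockout minus wild type. Kdr read 23.57 in labelled knockout vehicle, below the level filter, and 48.36 in wild-type vehicle.

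Ccl3 (macrophage inflammatory protein 1-alpha) read 1617 in labelled knockout heme, 1473 in labelled knockout vehicle, 2357 in wild-type heme and 2484 in wild-type vehicle. The arrays fell by genotype, with a gap between the higher labelled knockout and the lower wild-type value and little difference with heme. Labelled knockout minus wild type was -0.54 in heme and -0.75 in vehicle, and heme minus vehicle was 0.13 in the labelled knockout and -0.08 in wild type.

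Ccl4 (macrophage inflammatory protein 1-beta), an attractant of monocytes and T cells, read 232.6 in labelled knockout heme, 314.3 in labelled knockout vehicle, 488.1 in wild-type heme and 488.5 in wild-type vehicle. The wild-type arrays were level with each other, and both labelled knockout arrays lay below them, the heme array lowest. Labelled knockout minus wild type was -1.07 in heme, a 2.10-fold decrease, and -0.64 in vehicle. Heme minus vehicle was -0.43 in the labelled knockout and 0.00 in wild type. With 32 added to every value before log2, the difference in heme was -0.97, short of the call.

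Ccl5 (RANTES), which draws T cells, monocytes and eosinophils, read 112.4 in labelled knockout heme, 106.8 in labelled knockout vehicle, 284.9 in wild-type heme and 147.7 in wild-type vehicle. The wild-type heme array stood alone, 1.93-fold above the next, and the other 3 spanned 1.38-fold. Such a lone lead of 1.5-fold or more on the wild-type heme array was seen at 0.699% of all genes at level. Labelled knockout minus wild type was -1.34 in heme, where 50 of 10790 genes were lower by as much, and -0.47 in vehicle. Heme minus vehicle was 0.07 in the labelled knockout and 0.95 in wild type, a difference between the responses of -0.87. T and NK cells are rich sources of Ccl5. Their markers summed to 147.7 and 146.1 in the labelled knockout (heme, vehicle) and 168.2 and 149.9 in wild type, highest on the wild-type heme array. Of the 11 markers, 1, the pore-forming protein gene Prf1, reached the level filter on any array. The part of these cells in the Ccl5 values was not tested.

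Some markers of neutrophils and eosinophils also differed between the arrays that set Ccl5 apart. Neutrophil markers summed to 11802 and 9320 in the labelled knockout (heme, vehicle) and 14476 and 11113 in wild type, highest on the wild-type heme array. S100a8 and S100a9 weighed most in these sums, at 5613 and 5186 in wild-type heme. With heme in wild type 4 of 11 neutrophil markers at level were called higher, and 0 of 12 in the labelled knockout. The shares of all genes at level called in either direction were 2.06% and 1.65%. The 4 were Prtn3 (1.20), Retnlg (1.22), Mmp9 (1.29) and the chemokine receptor gene Cxcr2 (1.60). Prtn3 rose from 21.16, below the level filter, to 48.72. Mmp9 rose from 35.73 to 87.46, Retnlg from 51.67 to 120.1 and Cxcr2 from 68.71 to 208.5. The difference of the heme responses was called for Cxcr2 (-1.40) and Prtn3 (-1.26), and for the eosinophil gene Epx (-1.13). In heme, 1 of 12 was called lower in the labelled knockout (Cxcr2), as were 0.973% of all genes at level. In vehicle, 1 of 12 was called higher there (Retnlg), as were 0.525% of all genes at level. Mast cell, basophil and eosinophil markers summed to 632.4 and 709.1 in the labelled knockout and 1285 and 1100 in wild type. Prg2 alone made up most of these sums, at 435.5 and 501.8 in the labelled knockout and 1050 and 872.1 in wild type. The eosinophil granule genes Prg2 (-1.27) and Epx (-1.12) were called lower in labelled knockout heme, and Epx (1.10) was called higher with heme in wild type. Epx rose there from 31.6, close to the level filter, to 67.66. Of these 10 markers 3 were at level. The part of neutrophils and eosinophils in the Ccl5 values was not tested.

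**Figure D3:**
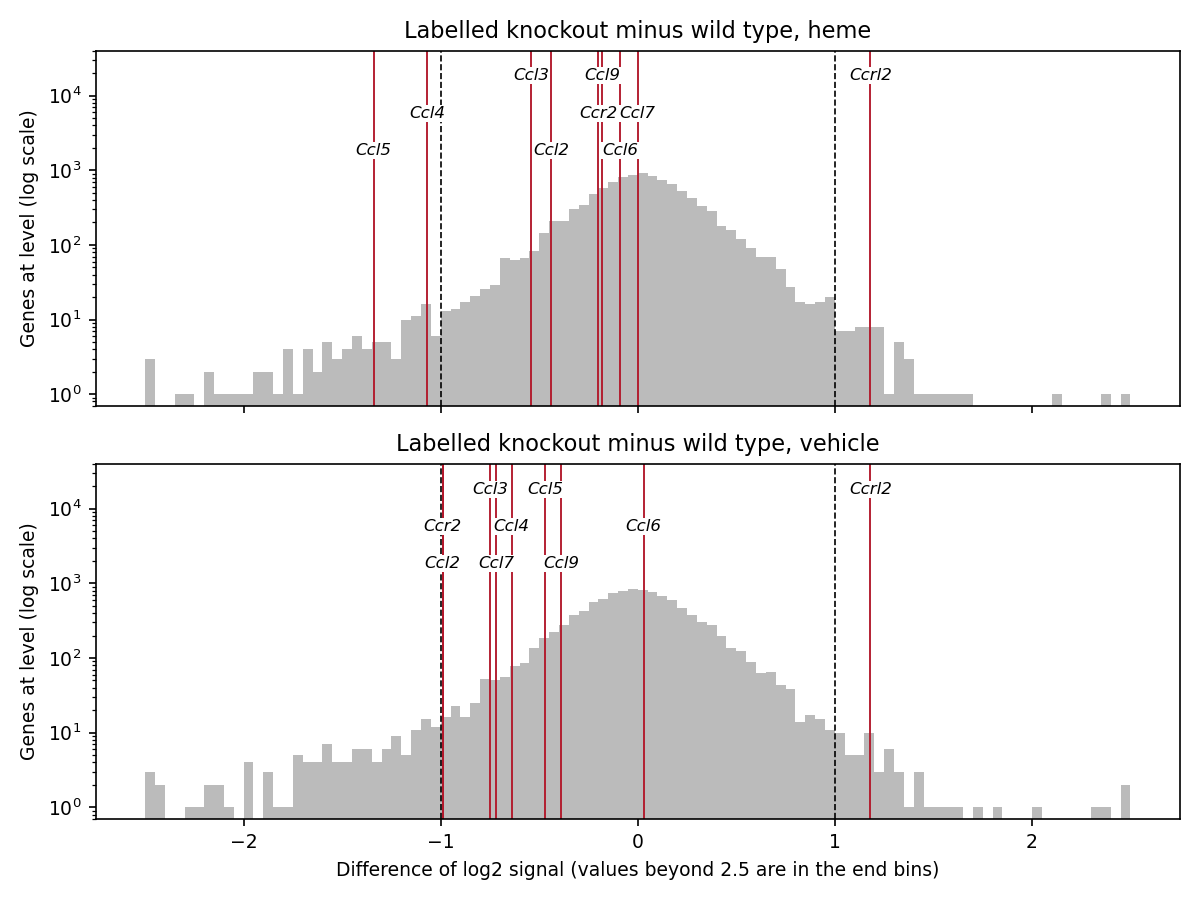
Distribution over all genes at level (grey, counts on a log axis) of the log2 difference, labelled knockout minus wild type, in heme (top) and vehicle (bottom), with the 9 genes as red lines and 2-fold as dashed lines. In vehicle 7 of the 9 lie below 0, and in both media Ccrl2 lies on the other side at 1.18.

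Ccl6 and Ccl9, related rodent chemokines that act through Ccr1, had the smallest ranges of the 9 genes. Ccl6 read 5739 in labelled knockout heme, 6697 in labelled knockout vehicle, 6118 in wild-type heme and 6566 in wild-type vehicle. Its whole range was 1.17-fold, and the genotypes overlapped. Ccl9 read 2380 in labelled knockout heme, 1941 in labelled knockout vehicle, 2703 in wild-type heme and 2543 in wild-type vehicle. Its range was 1.39-fold, and both labelled knockout arrays lay below the wild-type arrays by small margins, with log2 differences of -0.18 in heme and -0.39 in vehicle. Array signals can compress differences among bright probe sets, and how far that applies here was not tested.

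The 7 ligands sit on chromosome 11 in the RefSeq annotation of GRCm38.p6, used here for gene order alone. Ccl2 and Ccl7 are next to each other among protein-coding genes, followed by Ccl11 and Ccl12, and their like profiles did not extend to these neighbours. Ccl11 read 42.56 and 39.56 in the labelled knockout (heme, vehicle) and 40.58 and 30.79 in wild type, lowest where Ccl2 was highest, and Ccl12 stayed below the level filter. Ccl5, Ccl9, Ccl6, Ccl3 and Ccl4 follow each other as consecutive protein-coding genes. Ccl9 and Ccl6, which varied least, lie between Ccl5 and the Ccl3 and Ccl4 pair. The annotated spans of Ccl3 and Ccl4 overlap, and whether their probe sets share signal was not tested.

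Ccrl2 (C-C chemokine receptor-like 2) binds the attractant chemerin and presents it to other cells without signalling by the usual G protein route. It read 102.3 in labelled knockout heme, 142.6 in labelled knockout vehicle, 45.12 in wild-type heme and 62.73 in wild-type vehicle. Both labelled knockout arrays lay above both wild-type arrays, and within each genotype the heme array was the lower. Labelled knockout minus wild type was 1.18 on the log2 scale in both media (2.27-fold), and 28 of 10790 genes in heme and 29 of 10859 in vehicle were higher by as much. Heme minus vehicle was -0.48 in both genotypes, so that the difference between the responses was 0.00. With 32 added to every value before log2 to damp low signals, the genotype differences were 0.80 in heme and 0.88 in vehicle, short of the call. A stricter level filter, a signal of 106 or the 75th percentile, also ended the call in heme, where the brighter array read 102.3, but not in vehicle. Its neighbour Ltf, a neutrophil granule gene, read between 86.92 and 95.91 on the 4 arrays.

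A promoter sequence (250 bases before to 50 after the start, RefSeq, GRCm38.p6) was found for 5 of the 9 genes. Those of Ccrl2 (the first of 3 listed starts), Ccl3 and Ccr2 are printed, 5′ to 3′ along the gene, because these genes show the 3 patterns above: higher in both labelled knockout arrays, lower in both, and highest in wild-type vehicle alone. Capitals mark matches to the motifs searched on both strands.
Ccrl2 (chr9:111057469-111057768, minus strand): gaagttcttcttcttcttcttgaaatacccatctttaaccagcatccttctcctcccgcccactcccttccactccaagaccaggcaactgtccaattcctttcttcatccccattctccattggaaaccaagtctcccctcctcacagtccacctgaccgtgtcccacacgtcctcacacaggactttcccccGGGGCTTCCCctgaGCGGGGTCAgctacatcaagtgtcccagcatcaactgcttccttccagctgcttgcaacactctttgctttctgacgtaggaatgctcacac
Ccl3 (chr11:83649329-83649628, minus strand): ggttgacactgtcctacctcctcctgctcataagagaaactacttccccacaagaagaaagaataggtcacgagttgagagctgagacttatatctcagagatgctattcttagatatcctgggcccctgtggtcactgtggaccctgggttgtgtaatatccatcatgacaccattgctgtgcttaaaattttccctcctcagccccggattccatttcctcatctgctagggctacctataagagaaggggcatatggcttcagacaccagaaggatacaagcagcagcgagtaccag
Ccr2 (chr9:124101933-124102232, plus strand): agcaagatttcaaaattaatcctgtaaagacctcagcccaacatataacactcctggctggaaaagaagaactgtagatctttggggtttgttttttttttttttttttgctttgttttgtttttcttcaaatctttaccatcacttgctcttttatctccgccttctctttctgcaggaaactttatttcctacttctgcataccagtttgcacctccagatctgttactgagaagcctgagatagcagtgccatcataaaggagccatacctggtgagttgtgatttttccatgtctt
The motifs were the AP-1 site TGANTCA, the core TGACNNNGC of sites for CNC and Bach factors, and the NF-kB consensus. They were found in 7.93%, 12.5% and 4.35% of the 27025 mouse promoters of that length. The Ccrl2 window holds an NF-kB match, GGGGCTTCCC, at -56 to -47 from the start and, at -42 to -34, a match to the CNC and Bach core on the opposite strand, GCGGGGTCA. The windows of its other listed starts hold no match. Neither do those of Ccl3, Ccr2 and Ccl6, and Ccl9 has 1 AP-1 match (TGAATCA) and 1 NF-kB match (GGAAAGCCCC). These matches are letters in a window and no evidence of binding.

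Other CC chemokines and receptors gave the setting of these differences. Of 12 other ligands measured, 6 were at level in each comparison. In the labelled knockout 2 were called lower in heme (0.973% of all genes at level) and in vehicle (1.14%). They were Ccl17 (-3.74 and -3.83) and Ccl22 (-2.99 and -2.30), ligands of Ccr4. Ccl17 read 76.0 and 107.1 in the labelled knockout (heme, vehicle) and 1019 and 1520 in wild type. The list's medians were -0.15 in heme and 0.11 in vehicle over all 12, and -0.37 and 0.06 over the 6 at level. Neither heme response had a call among them. Of 11 other receptors measured, 5 were at level in heme and 4 in vehicle. Ccr7, which guides dendritic cells to lymph nodes, was called lower in both media, at 44.55 and 35.21 in the labelled knockout (heme, vehicle) and 119.5 and 90.71 in wild type. The receptor list had medians of 0.09 in heme and -0.13 in vehicle for genotype over all 11, and no call with heme in either genotype. Over the receptors at level the genotype medians were 0.18 and -0.23. Ccr1, a receptor of Ccl3, Ccl5, Ccl6 and Ccl9, read 359.3 and 427.5 in the labelled knockout and 443.9 and 611.4 in wild type, a difference of -0.31 in heme and -0.52 in vehicle. Its order over the arrays was that of Ccr2.

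The summed signal of dendritic cell markers was 2386 and 3036 in the labelled knockout (heme, vehicle) and 6506 and 8270 in wild type. Of the 8 of 11 markers at level, 6 were called lower in the labelled knockout in heme and 5 in vehicle, and 0 were called higher. Over all genes at level, 0.973% were called lower in heme and 1.14% in vehicle. Ccr7 is on this list too, and the others called in both media were Cd74 (-1.80 in heme, -1.95 in vehicle), H2-Ab1, H2-Eb1 and Ciita, genes of MHC class II presentation. Cd83 (-1.17) was called in heme alone. The dendritic cell markers Flt3, Zbtb46 and Dpp4 were below the filter on every array. With heme 0 of 8 were called in either genotype, where 1.65% (labelled knockout) and 2.06% (wild type) of all genes were. The part of dendritic-type cells in the chemokine differences was not tested.

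Of 22 regulators of inflammatory chemokine genes measured, all were at level. With heme, 0 were called in the labelled knockout, where 1.65% of all genes at level were called in either direction. In wild type, where 2.06% were, 4 were called higher. They were the NF-kB inhibitor genes Nfkbia (1.01) and Nfkbie (1.11), Tnfaip3 (1.10), which encodes the NF-kB feedback protein A20, and the AP-1 subunit Fosl1 (1.30). Fosl1 rose from 28.32, below the level filter, to 69.58. The list medians were 0.24 in the labelled knockout and 0.16 in wild type, against 0.02 and -0.01 over all genes. Labelled knockout minus wild type gave 1 call in heme, Tnfaip3 at -1.22, and 0 in vehicle, with a median of -0.27 in both. The shares of all genes at level called were 1.49% in heme and 1.67% in vehicle. Tnfaip3 read 94.64 and 72.83 in the labelled knockout (heme, vehicle) and 219.8 and 102.6 in wild type, highest on the same array as Ccl5.

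For the 5 genes that spanned 2-fold or more over the arrays, the 3 nearest profiles among 11155 genes at level were found by the Euclidean distance of log2 signals centred on their mean over the 4 arrays. Ccl5 was nearest to Tnf (0.21), the cytokine TNF, then Tnfaip3 (0.25) and Alyref2 (0.28). Tnf read 230.3 and 191.4 in the labelled knockout (heme, vehicle) and 477.7 and 279.7 in wild type. Ccl4 was nearest to Tmem176b (0.06), the Src-family kinase gene Fyn (0.08) and Cd83 (0.12), which encodes a surface protein of mature dendritic cells. Fyn passed the level filter on the wild-type arrays alone, at 31.05 in heme and 31.47 in vehicle. Ccl2 was nearest to Rnd2 (0.06), Kdr (0.10) and the fatty acid receptor gene Ffar4 (0.17). Rnd2, Kdr and Ffar4 passed the level filter on the wild-type vehicle array alone, at 34.48, 48.36 and 32.11. Their place among genes at level thus rests on the array that sets the profile. Ccr2 was nearest to the protein kinase C gene Prkca (0.05), Mrpl54 (0.13) and E2f8 (0.15).

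Ccrl2 was nearest to the Fc receptor gene Fcgr4 (0.12), Srsy (0.16) and the leukotriene C4 synthase gene Ltc4s (0.16). Fcgr4 read 298.4 and 403.4 in the labelled knockout (heme, vehicle) and 117.6 and 170.4 in wild type, and Ltc4s read 251.8 and 311.0 in the labelled knockout against 113.9 and 152.7 in wild type. With 4 arrays many genes lie close to any profile, and these distances are a description.

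**Figure D4:**
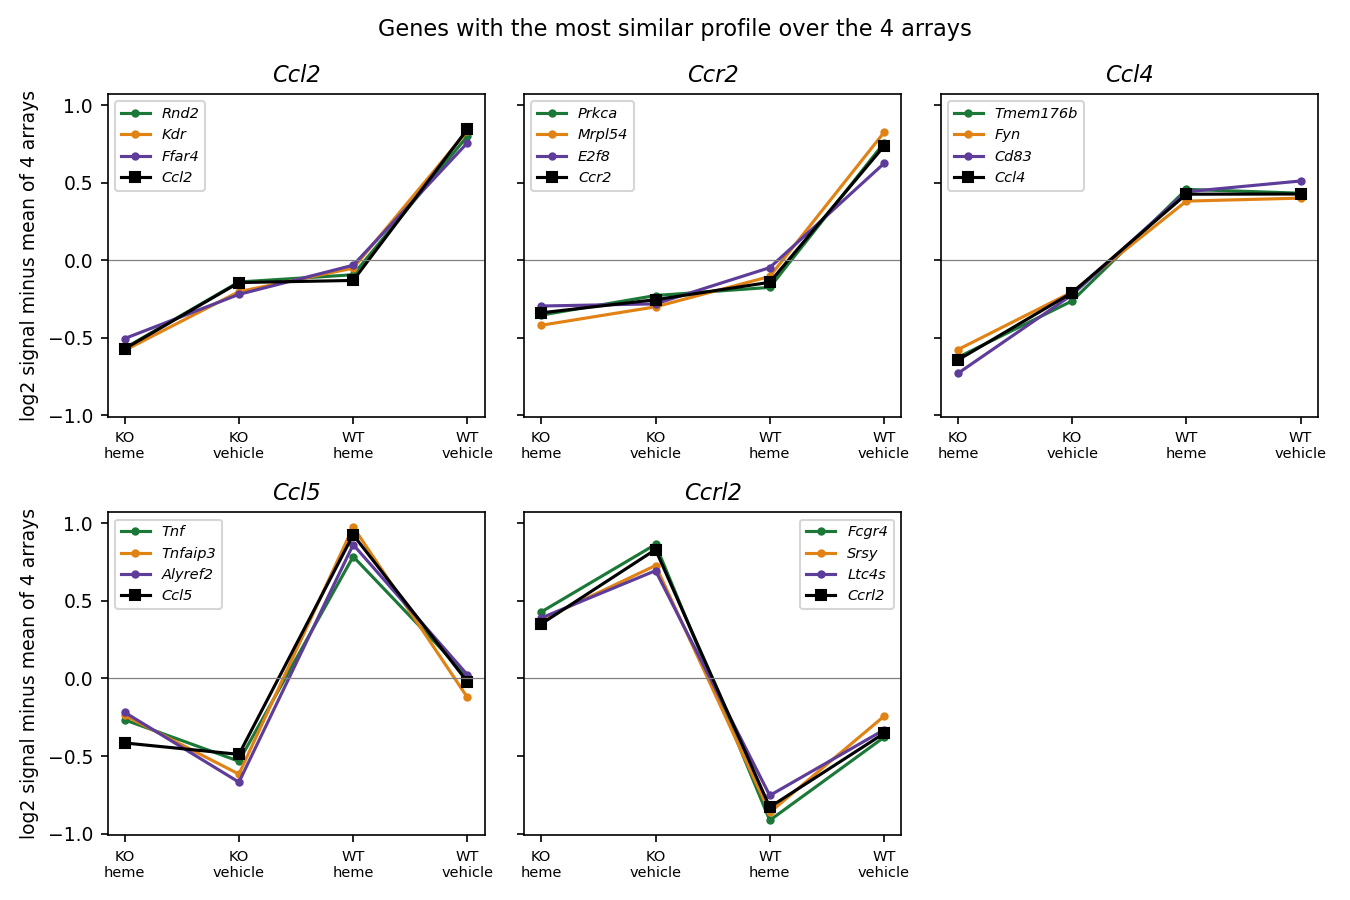
Log2 signal on each array minus the mean of the 4 arrays for the 5 genes whose signal spanned 2-fold or more (black squares) and the 3 genes with the nearest profile (coloured circles); lines join the arrays of a gene. Ccl5 and Tnf peak on the wild-type heme array, and Ccrl2 and Fcgr4 stand high on both labelled knockout arrays.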

How the data were processed

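The deposited values are linear intensity for 35556 probe sets on 4 arrays, made by the authors with RMA, per the submitters' processing notes; the series' design text describes other cells, so the sample labels were followed. RNA was labelled with an Ovation PicoSL kit, per the labels' protocols. The depth behind an array signal is not a count, and precision is limited by 1 array per group. No detection call came with the values.

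No scaling was added. Of the probe sets, 21789 had a single gene symbol, updated through Entrez numbers to the RefSeq table of GRCm38.p6; a gene with several (999 genes) was read from the brightest. Values were taken to log2 and subtracted. A call needed 2-fold and a brighter array at or above the median of all values; no p-value was computed. Other CC chemokines, receptors and regulators were named if called, at most 4 per list and comparison; cell markers, Ccr1, Ccl11, Ccl12 and Ltf were named outside this rule, with their values seen. The members, the lists and these rules were chosen with earlier results of these data known. Some list genes were not analysed here. Alternatives were 1.5-fold and 3-fold calls, no level filter, a stricter one at the 75th percentile, quantile normalization again, lowess centring (span 0.3), 32 added to each value and the mean of probe sets. Software was Python 3.11.15 with matplotlib 3.10.9, statsmodels 0.14.6, pandas 2.3.3 and numpy 2.4.6.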

Additional observations from a re-analysis of the deposited data

Results flagged for a closer look

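The following differences ran in opposite directions under the same contrast, each between single arrays and none tested. Ccl3 was 0.13 higher on the log2 scale with heme in the labelled knockout and lower in wild type (-0.08), a difference between the responses of 0.21. Ccl6 was lower in the labelled knockout in heme (-0.09) and higher in vehicle (0.03), a difference of -0.12. Both are smaller in size than 0.32, the robust SD of that difference over all genes at level. For Ccl22, heme minus vehicle was -0.04 in the labelled knockout and 0.65 in wild type, a difference of -0.69. Fosl1 was lower in the labelled knockout in heme (-0.08) and higher in vehicle (0.41), a difference of -0.49. Its wild-type vehicle signal of 28.32 was below the level filter. The -0.04 of Ccl22 and the -0.08 of Fosl1 are smaller in size than the robust SD of their comparisons, 0.28 and 0.25. Their sign is thus close to no difference.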

How the results depend on the processing

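Of 60 alternative values for the counts of calls and the medians over the 9 genes, 53 stayed close to those reported. Of 180 values for single genes, 178 did. A reversed call was seen at 0 of the 180, but most of these had no call to reverse, and a lost call was not counted as reversed. Some values could not change. Each gene had 1 probe set, so the mean of probe sets fixed 10 of the 60 values and 45 of the 180. All 9 passed the level filter on every array, so dropping it could alter none of its 5 counts. A 3-fold cut could not alter a count of 0. Neither set of values covers the other gene lists. At 1.5-fold, the calls were 4 of 9 for heme in wild type (Ccl5 higher, Ccl2, Ccl7 and Ccr2 lower), 6 for genotype in vehicle (Ccrl2 higher, Ccl2, Ccl3, Ccl4, Ccl7 and Ccr2 lower) and 3 for the difference of the heme responses (Ccl7 and Ccr2 higher, Ccl5 lower). The share of all genes called then was 9.71%, 7.56% and 11.4%. At 3-fold, 0 of the 9 were called for genotype in heme (0.306% of all genes) and 0 in vehicle (0.405%). With 32 added to each value, genotype gave 1 call in heme (Ccl5; 0.565% of all genes) and 0 in vehicle (0.663%), as Ccrl2 lost its call in both media and Ccl4 in heme (-0.97). With the filter at the 75th percentile, Ccrl2 lost its call in heme, which left 2 of 9 (1.60%). Quantile normalization again and lowess centring moved no difference of the 9 genes by more than 0.09 on the log2 scale. No paired analysis was possible because each group had 1 array. No array could be left out for the same reason, so the wild-type vehicle array that decides the values of Ccl2, Ccl7 and Ccr2 cannot be checked against another.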
